A study of Homo sapiens with 15 samples.

Results

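Condensate pellets formed with dsRNA were compared gene by gene with pellets formed with silvestrol, using 6 of the 15 sequenced libraries: dsRNA replicates 1 to 3 and silvestrol replicates 1 to 3, paired by replicate number. All extracts came from U2OS cells, a human osteosarcoma line labelled wild type, and each reaction ran for 2 h. The dsRNA reactions held 250 nM dsRNA and the silvestrol reactions 2 µg/ml silvestrol. Mock reactions were untreated, input was untreated extract that was not pelleted, and a further group of pellets held 1% PEG, a molecular crowder. The study's methods call the pelleted material YFP-G3BP1 condensates, whereas the labels name no transgene. No vehicle-treated pellet was analysed here, and replicates are labelled as biological without naming separate cultures. Poly(A) RNA was selected before sequencing, which depletes RNA without a tail, although 12 snoRNA genes still passed the count filter.

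Both agents stop translation at its initiation step by different routes. Double-stranded RNA binds and activates the kinase PKR, encoded by EIF2AK2, which phosphorylates the translation factor eIF2α and starts the integrated stress response. Silvestrol, a plant rocaglate, clamps the RNA helicase eIF4A onto messenger RNA and blocks scanning without eIF2α phosphorylation. In both cases mRNAs released from ribosomes gather with G3BP1 and other RNA-binding proteins into stress granules.

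The 2 pellet transcriptomes were close, and most of the genes called were lower with dsRNA. Of 16612 genes tested, 414 (2.49%) were lower with dsRNA than with silvestrol and 39 (0.235%) were higher, at an adjusted p-value under 0.05 (edgeR, quasi-likelihood F test, p adjusted after Benjamini and Hochberg) with the replicate number as a block. The lower genes had a median log2 fold change of -0.33, and 78 of them were past -0.5. The higher genes had a median of 0.22, and 4 were past 0.5. Over all genes the median was 0.01, and the 95% confidence interval of 13950 genes (84.0%) lay wholly within 0.5 on either side of 0. A lower value means less of a transcript among the reads of the dsRNA pellet, and less of it in the pellet cannot be told apart from less of it in the treated extract, because treated extract before pelleting was not analysed here. The sequence of the added dsRNA was not analysed here either, so whether a lower gene shares sequence with it was not tested.

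These calls rest on the pairing of the replicates. With the replicate block 1769 genes had an unadjusted p under 0.05, of which 1077 were lower with dsRNA, so below the threshold the split was less uneven than among the calls. Without the replicate block the same test called 0 genes in either direction, with a smallest adjusted p of 0.282 and 330 genes at an unadjusted p under 0.05, of which 303 were lower with dsRNA. DESeq2 without the block called 68 lower and 0 higher. The replicate 1 libraries of both groups stood apart from replicates 2 and 3, and the biological coefficient of variation fell from 0.182 to 0.0493 with the block. Without replicate 1 the counts were 563 lower and 305 higher, without replicate 2 they were 231 and 20, and without replicate 3 they were 270 and 11. Of the 414 lower genes 186 were called whichever pair was left out, and of the 39 higher genes 2 were.

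A paired fit favours genes with 1 direction in all pairs, so the direction within pairs is given as a description. Of the 414 lower genes 412 were lower in all 3 pairs, with medians of -0.32, -0.40 and -0.33 in pairs 1, 2 and 3 on the log2 scale. Of the 39 higher genes 38 were higher in all 3 pairs. Among all genes tested 4996 (30.1%) had 1 direction in all 3 pairs, 2628 of them lower and 2368 higher. The 3 dsRNA values lay entirely below the 3 silvestrol values for 270 of the 414 lower genes, and entirely above them for 10 of the 39 higher genes. Among all genes tested, 3.7% had dsRNA values entirely below and 1.79% entirely above. Total counts were 33577813 to 39490923 per dsRNA library and 35324726 to 45319526 per silvestrol library, and thinning all 6 to the smallest total gave 409 lower and 34 higher.

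**Figure D1:**
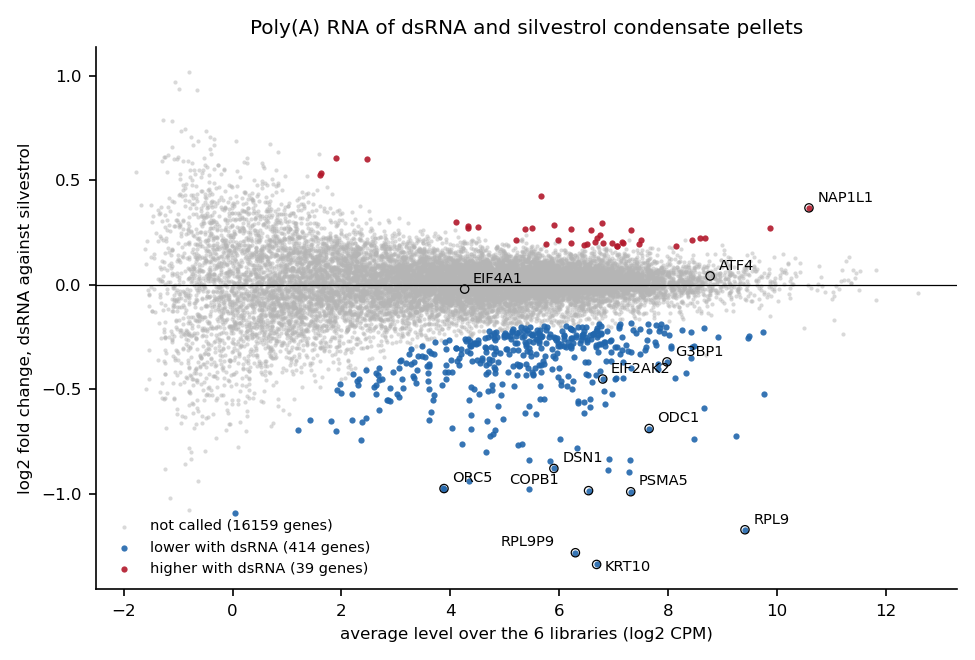
Each point is 1 of 16612 genes; the horizontal axis gives its average level over the 6 libraries in log2 CPM and the vertical axis its log2 fold change, dsRNA against silvestrol. The 414 genes called lower (blue) reach -1.34, while the 39 called higher (red) reach 0.61, and some named genes are ringed.

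The largest falls among genes with an average level of at least 3 log2 CPM were in genes of varied function, including RPL9 and its pseudogene. Levels are given as CPM, read counts scaled to a common library size, so they compare libraries and not genes of different length. KRT10 (ENSG00000186395; GRCh38 chromosome 17, 40818117 to 40822595, minus strand), an intermediate filament keratin, was at 63.3, 46.6 and 53.8 CPM with dsRNA and at 116, 163 and 137 CPM with silvestrol. The dsRNA values were all below the silvestrol values, and the log2 fold change was -1.34 (SE 0.09, edgeR with Benjamini-Hochberg adjustment, adjusted p = 1.95e-12), which leaves 0.396 of the silvestrol level. The fall was larger in pair 2 (-1.80) and pair 3 (-1.35) than in pair 1 (-0.88). Without replicate 2 the log2 fold change was -1.11.

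RPL9 (ENSG00000163682; chromosome 4, 39454124 to 39458948, minus strand), a protein of the large ribosomal subunit, was at 297, 450 and 422 CPM with dsRNA and at 649, 1106 and 908 CPM with silvestrol. The groups did not overlap, and the log2 fold change of -1.17 (SE 0.06, adjusted p = 3.80e-15 in edgeR after Benjamini-Hochberg adjustment) was the best supported of all genes tested. Its pseudogene RPL9P9 (chromosome 15, 82372196 to 82372912, minus strand) was at 33.1, 43.3 and 51.9 CPM against 78.8, 128 and 106 CPM, a log2 fold change of -1.28. The pair is nearly identical in sequence, so reads of one may have been counted on the other, and they are not independent observations.

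PSMA5 (ENSG00000143106; chromosome 1, 109399031 to 109426427, minus strand), an alpha subunit of the 20S proteasome, stood at 127, 87.0 and 87.9 CPM with dsRNA and 216, 210 and 169 CPM with silvestrol, a log2 fold change of -0.99 (SE 0.06). COPB1 (ENSG00000129083; chromosome 11, 14443440 to 14500027, minus strand), a subunit of the COPI vesicle coat, stood at 59.7, 55.2 and 59.98 CPM with dsRNA and 131, 119 and 99.0 CPM with silvestrol, a log2 fold change of -0.98 (SE 0.06). PSMA5 was left at 0.503 and COPB1 at 0.505 of the silvestrol level, with no overlap between groups. Both had an adjusted p of 1.95e-12 in edgeR after Benjamini-Hochberg adjustment.

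The other 7 of the 12 largest falls ranged from -0.98 to -0.88 on the log2 scale, and none overlapped between groups. ORC5, a subunit of the origin recognition complex that marks sites of DNA replication, fell from 18.3 ± 3.44 to 9.26 ± 1.38 CPM (SD, n = 3). MED18, a subunit of the Mediator complex of transcription, fell from 17.9 ± 0.740 to 9.18 ± 1.94 CPM. GYG1, the glycogenin that primes glycogen synthesis, fell from 25.1 ± 5.98 to 13.0 ± 2.00 CPM. The next genes in the ranking had roles in metabolism and the cell cycle. ETFA, part of the flavoprotein that passes electrons from fatty acid oxidation to the respiratory chain, fell from 191 ± 37.8 to 101 ± 5.70 CPM. CCNG1, cyclin G1, a target of p53, fell from 145 ± 20.7 to 78.3 ± 9.16 CPM. DSN1, a kinetochore protein, was at 49.7, 34.4 and 34.5 CPM with dsRNA and 89.3, 68.8 and 60.1 CPM with silvestrol. The largest fall of the 7 was in C8orf76, at 27.6 ± 6.44 CPM with dsRNA and 54.0 ± 6.24 CPM with silvestrol. C8orf76 shares exons with the read-through gene ZHX1-C8orf76. These 12 genes kept their call with any 1 replicate pair left out and lost it only in edgeR without the replicate block, among 16 alternatives.

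**Figure D2:**
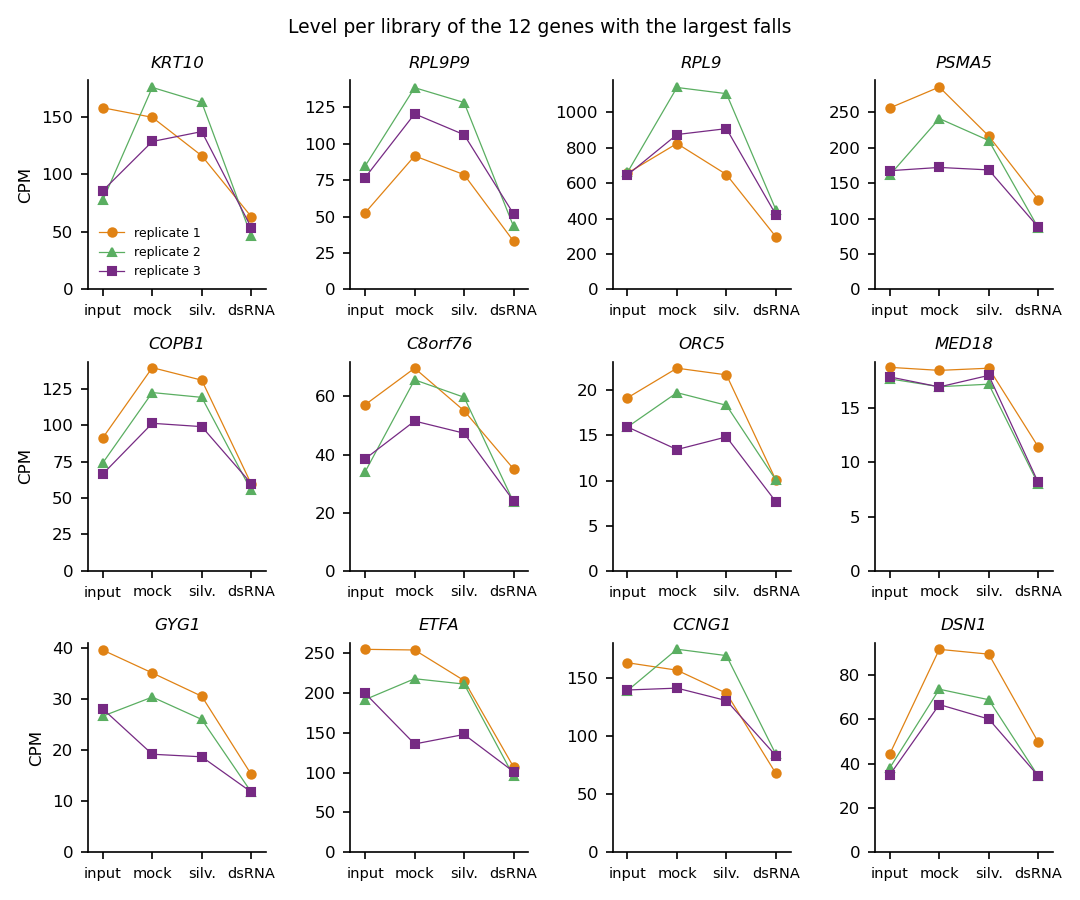
Level in CPM (vertical axes, from 0) of the 12 genes with the largest falls in each input, mock, silvestrol and dsRNA library; lines join libraries of one replicate number and have no other meaning. In each panel the 3 dsRNA values lie below the 3 silvestrol and the 3 mock values.

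The mock pellets allow each agent's own difference to be given. Against mock pellets, dsRNA pellets had 441 genes lower (2.65%) and 25 higher (0.15%), whereas silvestrol pellets had 0 lower (0%) and 2 higher (0.012%), in the same blocked edgeR fit. The comparisons share the dsRNA, silvestrol or mock libraries, so their values are given side by side, and genes chosen for low dsRNA libraries must tend to lie low against mock as well. For the 414 genes lower with dsRNA than with silvestrol, the median log2 fold change against mock was -0.36 with dsRNA and -0.02 with silvestrol. For the 39 higher genes the medians were 0.14 with dsRNA and -0.09 with silvestrol. These genes were chosen for dsRNA values above silvestrol values. They must likewise tend to lie above mock with dsRNA and below it with silvestrol. With silvestrol 37 of the 39 lay below mock, and 0 were called lower than mock. With dsRNA 5 were called higher than mock: NAP1L1, UACA, POC1A, NFRKB and MIR23AHG. Without the replicate block, 0 genes were called in either comparison with mock. The study, which correlated normalised read counts, reports that the RNA of mock, dsRNA and silvestrol condensates did not differ significantly.

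KRT10 and RPL9 were picked for their fall between silvestrol and dsRNA, so their values beside mock are examples and not a test. KRT10 averaged 151 CPM in mock, 139 with silvestrol and 54.5 with dsRNA. RPL9 averaged 947 CPM in mock, 888 with silvestrol and 390 with dsRNA. Their mock and silvestrol means differed by less than the spread within each group, and the log2 fold change of silvestrol against mock was -0.13 for KRT10 and -0.11 for RPL9, neither called.

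Several called genes had the larger difference from mock with silvestrol. CEBPZ was at 0.07 with dsRNA and -0.22 with silvestrol against mock, and EIF2S2 at -0.04 and 0.18, neither called against mock. IK, a spliceosome protein, was at 306, 375 and 345 CPM with silvestrol, 214, 294 and 239 CPM in mock and 218, 322 and 234 CPM with dsRNA. HES1, a transcriptional repressor downstream of Notch, was at 78.8, 76.4 and 76.7 CPM with silvestrol, 61.2, 61.2 and 59.5 CPM in mock and 71.1, 61.3 and 62.0 CPM with dsRNA. IK was named after its values were seen. IK and HES1 were the only genes called between silvestrol and mock (log2 fold changes of 0.46 and 0.35, edgeR with Benjamini-Hochberg adjustment, adjusted p = 0.00559 and 0.0202). Against dsRNA their log2 fold changes were -0.42 for IK (adjusted p = 1.05e-05 in edgeR, groups overlapping) and -0.25 for HES1 (adjusted p = 0.00484 in edgeR). Without replicate 2 or replicate 3 the HES1 difference was no longer called (adjusted p = 0.134 and 0.159).

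Against input, dsRNA pellets had 4839 genes lower (29.1%) and 5147 higher (31%), and silvestrol pellets had 4764 lower (28.7%) and 5109 higher (30.8%). The 414 genes lower with dsRNA than with silvestrol were chosen from the same libraries. Against input they must therefore tend to lie lower with dsRNA than with silvestrol, and the counts are a description. Of these 414 genes, 284 were called lower than input with dsRNA and 124 with silvestrol, while 15 and 80 were called higher. In 11 of them the direction turned, above input in the silvestrol pellet and below it in the dsRNA pellet. These were RPL9, RPL9P9, COPB1, C8orf76, COPG2, PRKD3, IPP, ELP2, PRR11-AS1, NBPF3 and SEC24A, most of them named here with their values already seen. COPB1 was at 77.3 CPM in input, 116 CPM with silvestrol (log2 fold change against input 0.62) and 58.3 CPM with dsRNA (-0.36). DSN1 was at 39.2 CPM in input, 72.7 CPM with silvestrol (0.91) and 39.5 CPM with dsRNA (0.04, not called).

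**Figure D3:**
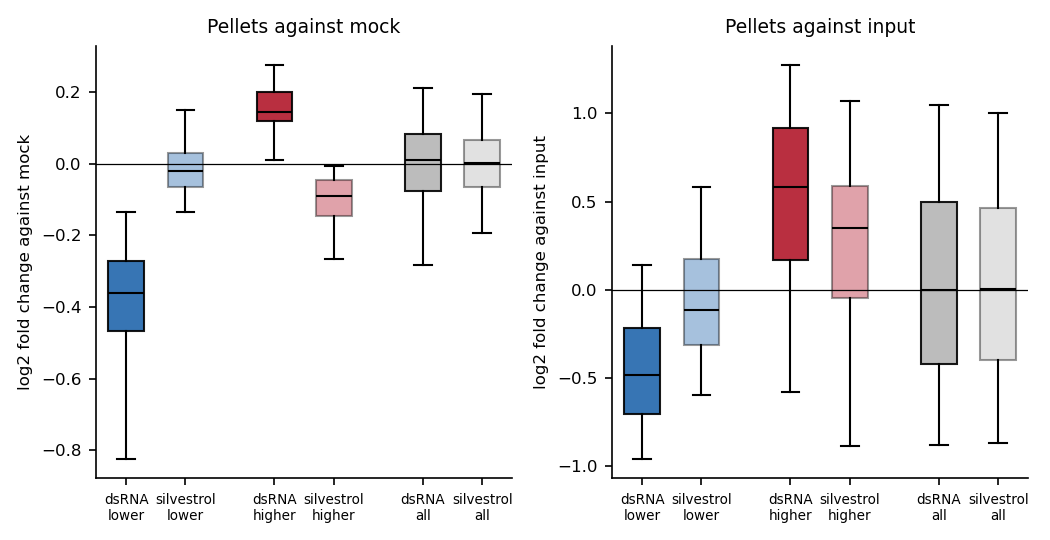
Log2 fold changes of dsRNA (dark) and silvestrol (pale) pellets against mock (left) and input (right), for the 414 genes lower with dsRNA, the 39 higher and all 16612; boxes give the quartiles with the median, whiskers the 5th and 95th percentiles. Against mock the lower genes have a median of -0.36 with dsRNA and -0.02 with silvestrol.

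Single genes of the PKR pathway and of stress granules were among those called, while the medians of these lists were close to the 0.01 of all genes. EIF2AK2 (ENSG00000055332; chromosome 2, 37099210 to 37157065, minus strand), which encodes PKR, was at 95.03, 83.9 and 85.9 CPM with dsRNA and 130, 118 and 116 CPM with silvestrol. The groups did not overlap, and the log2 fold change was -0.45 (SE 0.05, edgeR with Benjamini-Hochberg adjustment, adjusted p = 3.52e-07). Its 3 pairs gave -0.45, -0.49 and -0.43. Some of its exons overlap GPATCH11 on the other strand, and the strand setting of the counting is not given in the sources used here.

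Of the other 22 double-stranded RNA sensing genes measured, MAVS, the mitochondrial adaptor of the RIG-I-like receptors, was lower with dsRNA (log2 fold change -0.21, adjusted p = 0.0160 in edgeR after Benjamini-Hochberg adjustment). Its groups overlapped, at 174, 156 and 136 CPM with dsRNA against 196, 178 and 165 CPM with silvestrol, and without replicate 2 or 3 the adjusted p was 0.116 or 0.395. The list had 2 of 23 genes lower and 0 higher, beside 2.49% and 0.235% of all genes, with a median of 0.01.

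In the integrated stress response list 4 of 32 genes were lower and 0 higher, beside 2.49% and 0.235% of all genes, and the median was 0.02. Besides EIF2AK2 they were PPP1CB (-0.32), a catalytic subunit of the phosphatase that reverses eIF2α phosphorylation, IBTK (-0.28) and EIF2S2 (-0.22), the β subunit of eIF2. PPP1CB and EIF2S2 lost their call without replicate 2 (adjusted p = 0.0843 and 0.236). IBTK kept its call with any 1 pair left out. ATF4 and PPP1R15A, both known for being translated during this response, were not called. ATF4, its main transcription factor, was at 357, 434 and 454 CPM with dsRNA and 328, 426 and 463 CPM with silvestrol, with an interval of -0.07 to 0.15, and PPP1R15A, the regulatory partner of the phosphatase, had an interval of -0.09 to 0.14.

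Among 42 mRNAs of stress granule proteins, 3 were lower with dsRNA and 0 higher, beside 2.49% and 0.235% of all genes, with a median of 0.02. G3BP1 (ENSG00000145907; chromosome 5, 151771045 to 151812785, plus strand), whose protein nucleates the granules, was at 209, 203 and 208 CPM with dsRNA and 268, 274 and 260 CPM with silvestrol. This fall of 0.37 on the log2 scale (SE 0.05, edgeR with Benjamini-Hochberg adjustment, adjusted p = 1.21e-05) was seen in all 3 pairs without overlap. Exons of G3BP1 overlap ATOX1 on the other strand, and whether reads of a YFP-G3BP1 transgene are among its counts was not tested. Its paralog G3BP2 was at 118, 106 and 107 CPM against 150, 131 and 126 CPM, a log2 fold change of -0.30 (adjusted p = 0.000352 in edgeR), and TARDBP, which encodes the RNA-binding protein TDP-43, was lower by a log2 fold change of -0.19 (adjusted p = 0.0288 in edgeR), with overlapping groups and no call without replicate 2 or 3 (0.340 and 0.181). The partners CAPRIN1, UBAP2L and TIA1 were not called, at -0.06, 0.07 and 0.05; they were picked after their values were seen.

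The list of 18 mRNAs for eIF4F, the cap-binding complex that holds eIF4A, and its partners had 0 genes called in either direction, against a background of 2.49% lower and 0.235% higher. Their log2 fold changes ran from -0.11 to 0.18 with a median of -0.0027. EIF4A1, the target of silvestrol, was at 17.8, 17.7 and 18.0 CPM with dsRNA and 17.7, 18.1 and 18.6 CPM with silvestrol, with an interval of -0.16 to 0.12. Its exons overlap other genes, so its counted level may be too low. EIF4A2, its paralog, was at 581 ± 62.2 CPM with dsRNA and 595 ± 65.5 CPM with silvestrol, with an interval of -0.14 to 0.08.

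Among 24 growth-related mRNAs known for their dependence on eIF4A, 2 were lower with dsRNA and 1 was higher, beside 2.49% and 0.235% of all genes. The median of this list was 0.01. ODC1 (chromosome 2, 10439968 to 10448504, minus strand), the rate-limiting enzyme of polyamine synthesis, was at 171, 132 and 131 CPM with dsRNA and 260, 237 and 202 CPM with silvestrol. The groups did not overlap, and its log2 fold change was -0.69 (SE 0.05, edgeR with Benjamini-Hochberg adjustment, adjusted p = 1.44e-10). Its mock mean of 230 CPM lay beside the silvestrol mean of 233 CPM. MDM2, the ubiquitin ligase of p53, was at -0.20 and ROCK1, a kinase of the cytoskeleton, at 0.20, and both lost their call without replicate 2 (adjusted p = 0.271 and 0.398) or replicate 3 (0.169 and 0.691). MYC, CCND1 and MCL1 were not called, at 0.12, -0.05 and -0.08, and were likewise picked with their values known. Of the 6 stress granule clients that the study followed up, 1 was lower with dsRNA, beside 2.49% of all genes. This was TRIM37, a ubiquitin ligase (log2 fold change -0.33, adjusted p = 6.96e-05 in edgeR after Benjamini-Hochberg adjustment). Its groups did not overlap at 130, 104 and 110 CPM against 164, 137 and 134 CPM.

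Housekeeping machinery differed in single members, and the counts stand beside 2.49% of all genes lower. In cytosolic ribosomal protein mRNAs, 4 of 82 were lower (RPL9, RPS23, RPL7L1 and RPS3A) while the median was 0.06 and 11 of 82 had a value below 0. RPS23 was at 473, 782 and 750 CPM with dsRNA and 664, 1181 and 1059 CPM with silvestrol, a fall of 0.52 on the log2 scale that was seen in each pair although the groups overlapped. RPS3A lost its call without replicate 2 (adjusted p = 0.310). In the proteasome and the CCT chaperonin, 5 of 54 were lower (PSMA5, PSMD14, CCT8, CCT4 and PSMD13) and the median was -0.04. CCT4 lost its call without replicate 2 (adjusted p = 0.0833).

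Nuclear genes for mitochondrial functions had few members called, again beside 2.49% of all genes lower. In mitochondrial ribosomal protein mRNAs 2 of 79 were lower, MRPL3 (-0.57) and MRPS16 (-0.27, adjusted p = 0.107 in edgeR without replicate 2), and in nuclear-encoded respiratory chain subunits 4 of 78 were, led by ATP5F1A (-0.45), the α subunit of ATP synthase, and NDUFS1 (-0.37), a core subunit of complex I. TFB1M, a mitochondrial ribosomal RNA methyltransferase, was the 1 gene of 33 lower in the list of mitochondrial gene expression and maintenance, at 11.04, 9.89 and 8.96 CPM against 13.2, 15.6 and 14.4 CPM (log2 fold change -0.52). Exons of TFB1M (mean 502 counts) overlap TIAM2 (4830) on the other strand. Those of NDUFS1 (3440.5) overlap EEF1B2 (8374) in the same way, so the counts of both may hold reads of the neighbour. MGME1, MRRF, NDUFS6 and MRPL51 were not called, at -0.04, -0.01, 0.09 and 0.12. Exons of MRPL51 (mean 6566 counts) overlap NCAPD2 (26390) on the other strand. Those of MGME1 (1964) overlap SNX5 (4427) and those of MRRF (717) overlap RBM18 (582), also on the other strand. The counts of MRPL51, MGME1 and MRRF may therefore hold reads of the neighbour as well.

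The 13 mitochondrially encoded mRNAs did not differ detectably between the agents: 0 were called, the log2 fold changes ran from -0.04 to 0.18, and reads of the mitochondrial chromosome made up 1.21% ± 0.242 of dsRNA and 1.19% ± 0.121 of silvestrol counts (SD, n = 3; exact two-sided permutation test, p = 1.0, with 0.1 the smallest value 3 against 3 can give). Against input their median was 1.65 with dsRNA and 1.63 with silvestrol. The 8 long and 4 short transcripts that the study names likewise had 0 calls. The long ones lay between -0.08 and 0.08 (AHNAK 0.04, DYNC1H1 0.08) and the short ones between -0.02 and 0.06 (GAPDH -0.02, RPL39 0.05). Over all genes 2.49% were lower and 0.235% higher, so 0 calls in lists of 13, 8 and 4 is near that share.

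Among 438 zinc finger genes named ZNF, 17 (3.88%) were lower and 0 higher, beside 2.49% and 0.235% over all genes, with a median of -0.02. ZNF587B was lowest in adjusted p, at -0.55, with ZNF587 (-0.40), a close paralog whose reads may be shared, ZNF713 (-0.50) and ZNF320 (-0.37). DEAD-box and DEAH-box helicases had 4 of 51 lower (DDX20, DHX40, DDX24 and DHX32, from -0.33 to -0.22), heat shock proteins and DNAJ co-chaperones had 3 of 65 lower, including HSPA8 (-0.25) and HSPD1 (-0.21), and 1 higher (DNAJC2, 0.20), and solute carriers had 4 of 250 lower, including the phosphate carrier SLC25A3 (-0.35). Of these, DNAJC2, DDX24, DHX32 and HSPA8 lost their call without replicate 2 (adjusted p = 0.0621, 0.119, 0.432 and 0.176) and without replicate 3 (0.523, 0.315, 0.102 and 0.153). HSPD1 lost it without replicate 2 (0.312), DHX40 without replicate 3 (0.235) and DNAJC2 also without replicate 1 (0.0590).

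**Figure D4:**
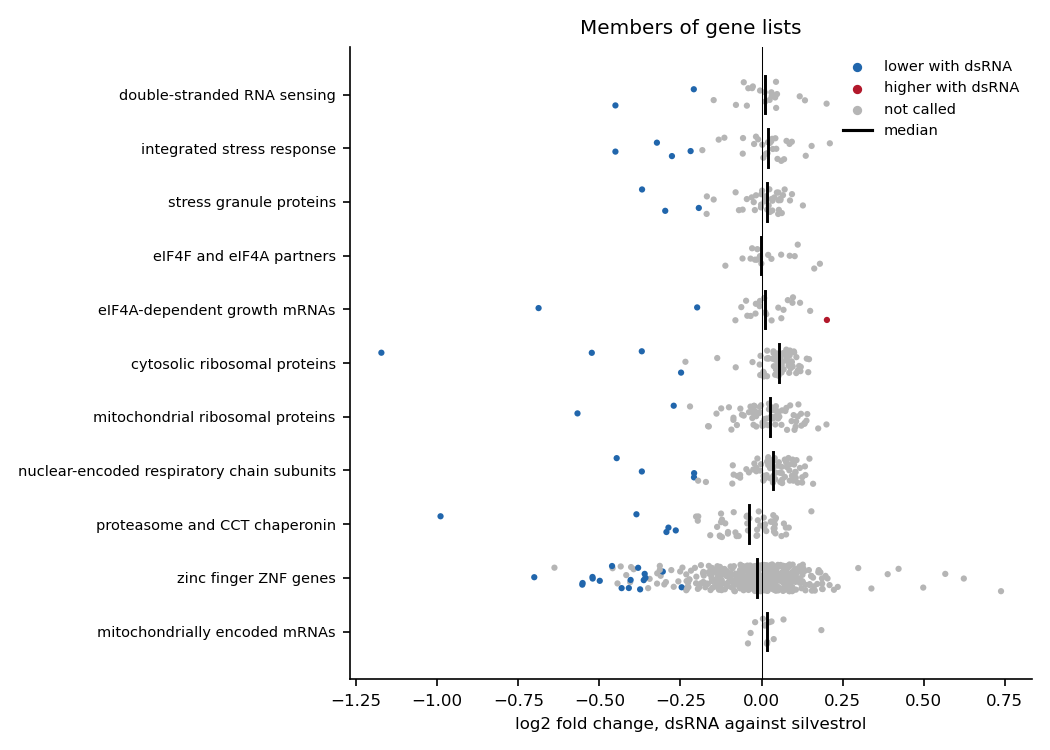
Log2 fold change, dsRNA against silvestrol (horizontal axis), of each measured member of 11 gene lists (rows); blue and red points are called lower and higher, grey points are not called, and black bars are medians. Medians lie between -0.04 and 0.06, with single members such as RPL9 (-1.17), PSMA5 (-0.99) and ODC1 (-0.69) far to the left; vertical scatter within a row has no meaning.

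Of 13533 protein-coding genes tested 390 (2.88%) were lower, beside 2.49% of all genes. Antisense genes by annotation had 7 of 893 (0.784%) and lincRNA genes 4 of 873 (0.458%) lower, and the part of their level in this, with 0.0903% of genes lower in the lowest quintile of level, was not tested. In antisense RNAs named -AS, 5 of 495 were lower, led by PRR11-AS1 at 31.6, 24.1 and 27.0 CPM with dsRNA and 50.2, 43.0 and 46.9 CPM with silvestrol (log2 fold change -0.76), and in LINC RNAs 3 of 314 were, LINC01521, LINC01234 and LINC00467. All of these except PRR11-AS1 lost their call without at least 1 pair, at adjusted p between 0.0553 and 0.208 in those fits. PRR11-AS1 overlaps PRR11, which was itself called lower (-0.59), so reads of the pair cannot be told apart without strand. In the same way KTN1-AS1, SBF2-AS1, KCTD21-AS1 and OIP5-AS1 overlap KTN1, SBF2, KCTD21 and OIP5. Of all 453 called genes 135 had exons overlapping, on the opposite strand, another gene with a mean of at least 10 counts. The share over all genes tested was not counted, so this number does not set the called genes apart.

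The higher genes changed little. NAP1L1 (ENSG00000187109; chromosome 12, 76036587 to 76085033, minus strand), a histone chaperone, was at 1439, 2029 and 1415 CPM with dsRNA and 1054, 1480 and 1241 CPM with silvestrol. The groups overlapped, each pair rose, and the log2 fold change was 0.37 (SE 0.06, edgeR with Benjamini-Hochberg adjustment, adjusted p = 0.000223, and 0.0886 without replicate 2). CEBPZ, at 113 ± 8.76 CPM against 92.8 ± 10.5 CPM without overlap (SD, n = 3; edgeR with Benjamini-Hochberg adjustment), had a log2 fold change of 0.29 (adjusted p = 0.000466 in edgeR) and kept its call without any 1 pair. ANP32B (0.27) did so as well. Exons of CEBPZ (mean 4204 counts) overlap CEBPZOS (1584.5) and NDUFAF7 (706.5) on the other strand, so the CEBPZ counts may hold reads of these neighbours.

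The 12 largest rises were taken, like the falls, among genes at 3 log2 CPM or more with 1 direction in all pairs, and below that level the rises reached 0.61. The other 9 lay between 0.26 and 0.30 and each lost its call without at least 1 pair, at adjusted p between 0.0562 and 0.368 in those fits. They were SAMD9, an antiviral factor, UACA, SNORD104, a box C/D small nucleolar RNA, CIR1, LRRCC1, OFD1 and POC1A, which serve centrosomes and centrioles, NFRKB, a subunit of the INO80 chromatin remodeler, and CCDC34. UACA was at 60.2, 65.5 and 59.5 CPM with dsRNA and 54.6, 52.1 and 46.0 CPM with silvestrol without overlap. KIF14, a mitotic kinesin, was the 1 of 61 microtubule motors called, beside 0.235% of all genes higher (0.24, no call without replicate 2 or 3 at adjusted p = 0.375 and 0.167 in edgeR). BCYRN1, a neuronal Alu-derived RNA singled out after its values were seen, was called higher although pair 2 went the other way (0.80, -0.11 and 0.51).

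The called genes shared a range of base composition and level. Lower genes had a median GC content of 44.7% and higher genes 40.4%, against 49.7% over all genes tested. By quintiles of GC content, 3.09%, 5.38%, 3.27%, 0.665% and 0.121% of genes were lower from the AT-rich to the GC-rich end. By quintiles of level the share lower went from 0.0903% in the lowest to 3.76% in the highest, and by quintiles of exon length from 1.14% in the shortest to 2.71% in the longest with a peak of 3.31% in the next longest. The lower genes also had a higher median level, 5.49 against 4.37 log2 CPM over all genes, and the part of level in these shares was not tested. All genes tested at 3 log2 CPM or more had a median GC content of 49.7% and a median exon length of 5260 bases. Over all genes tested the median exon length was 4428 bases, and in the lower genes it was 5187 bases. With a GC offset beside the block 421 genes were lower and 82 higher, and with a length offset 462 and 89.

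Exon length was compared within bands of GC content. In the second quintile, from 41.8% to 46.8% GC, the 178 lower genes had a median exon length of 4993 bases against 5745 in 2033 genes not called at a level of at least 3 log2 CPM. In the first quintile the medians were 6226 and 6297 bases and in the third 5000 and 5372. Without bands of GC content, runs of at least 8 purines, the base type that rocaglates clamp eIF4A onto, stood in the 5′ UTR of 57.1% of lower genes, 67.6% of higher genes and 56.5% of all genes tested, counted over genes with such a UTR annotated. The 23 higher genes in the most AT-rich quintile had a median A content of 34.1% against 30.8% in genes not called.

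**Figure D5:**
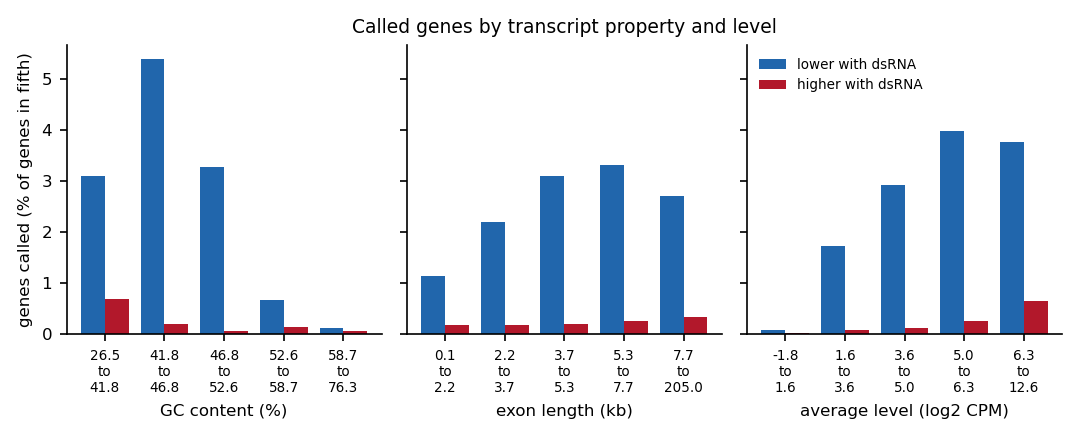
Share of genes called lower (blue) and higher (red) with dsRNA, in percent (vertical axis, from 0), in quintiles of all tested genes by GC content, exon length and average level (horizontal axes). The share lower peaks at 5.38% in the second GC quintile and is 0.121% in the quintile richest in GC.

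The labelled cell line was checked against marker genes. Of 9 osteosarcoma and mesenchymal markers 7 were measured, with VIM at 990 CPM and COL1A1 at 1440 CPM with silvestrol, while COL1A2 and TWIST1 did not pass the filter. Of 13 markers of other lineages 9 did not pass it, and the epithelial keratins KRT8 and KRT18 were at 355 and 160 CPM. None of the 11 measured markers was called between dsRNA and silvestrol. Of 23 interferon-stimulated genes 0 were called, with a median of -0.05. Over all genes 2.49% were lower and 0.235% higher, so 0 calls in lists this small is near that share.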

How the data were processed

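The authors deposited, for each of the 15 libraries, raw read counts per gene for 57500 genes. Per the submitters' processing notes the tools were Trimmomatic 0.36, STAR 2.5.2b and featureCounts of Subread 1.5.2 on GRCh38; the annotation release, the strand setting and the handling of multimapping reads are not given in the sources used here. Gene types, GC content and UTRs came from GENCODE 29 (54784 genes with the same start and end), with 1 basic transcript per gene, the one with the longest coding part; 16539 of the 16612 genes kept had a symbol.

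A gene was kept if all 5 conditions had 2 or more replicates with 10 or more counts. For every comparison, edgeR 4.0.16 was run on the 6 libraries concerned (quasi-likelihood F test, TMM) in R 4.3.3, with the replicate number as a block and Benjamini-Hochberg adjustment over all genes kept. The study's methods used DESeq2, name no replicate block for it and state unpaired testing in general. As an alternative, DESeq2 1.42.0 was run here with and without the block. CPM values are TMM-scaled over all 15 libraries. Standard errors and 95% intervals were derived from the F statistic of the fit, whose estimate of spread is moderated over genes. They cover these libraries only and do not measure the scatter between the 3 pairs of a gene, which can be wider. For KRT10 the interval was -1.517 to -1.159, while its pairs ran from -1.80 to -0.88. Fold changes within pairs used a prior count of 2.

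The labels number the biological replicates. Deviations from the group means correlated at 0.861, 0.647 and 0.629 between same-numbered dsRNA and silvestrol libraries, all over the 0.1 required, so libraries sharing a number were treated as pairs. Replicate 1 correlated with replicates 2 and 3 of the other group at -0.729 to -0.709, and replicates 2 and 3 with each other at 0.564 and 0.576. The last 2 values also pass 0.1, so this check sets replicate 1 apart and cannot tell which of replicates 2 and 3 belong together. For those the pairing rests on the labelled number alone. No 2 libraries of a group agreed within counting noise.

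The comparison and the 35 gene lists were chosen with earlier results of these data known; 7 further lists were added after the values were seen. Named genes were the 12 largest falls and 12 largest rises among called genes that had a symbol, a mean level of 3 log2 CPM or more and 1 direction in all 3 pairs; every called gene of the stress granule, double-stranded RNA sensing, integrated stress response and eIF4F lists; a fixed set including G3BP1, EIF2AK2, EIF4A1 and ATF4 and the transcripts the study names; and up to 4 called genes of each other list with the lowest adjusted p. The fit was tested on simulated data. Other alternatives were other size factors, filters, a fit of all 5 groups, a fold threshold, GC and length offsets (span 0.3), thinning and each pair left out. Genes named outside this rule were picked after their values were seen (some results are not reported here): IK, BCYRN1, MIR23AHG, PRR11, PSMD13, CAPRIN1, UBAP2L, TIA1, MYC, CCND1, MCL1, the markers, and those that turned against input. Descriptions and figures were made in Python 3.11.15 (matplotlib 3.10.9).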

Additional observations from a re-analysis of the deposited data

How the results depend on the processing

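The 414 lower and 39 higher genes held within 1.5 times with DESeq2's size factors, library size only, no filter, a filter on the 2 groups alone, a filter of 50 counts and thinning, and for the lower genes also with DESeq2 and the block (286), a GC offset and a length offset. Without the replicate block edgeR called 0 lower and 0 higher (330 genes at an unadjusted p under 0.05) and DESeq2 called 68 and 0. DESeq2 with the block called 18 higher. All 5 groups in 1 fit with the block gave 98 lower and 0 higher (667 genes at an unadjusted p under 0.05), and a log2 fold change over 0.5 gave 78 and 4. The block with a GC offset called 82 higher and with a length offset 89, with all 39 of the main fit among them in both. Leaving out 1 replicate pair gave 231 to 563 lower and 11 to 305 higher. With no replicate block, genes called fell from 466 to 0 for dsRNA against mock, from 2 to 0 for silvestrol against mock and from 9873 to 6232 for silvestrol against input, and stayed within 1.5 times at 6768 of 9986 for dsRNA against input; the causes were not tested. In every one of the 13 alternatives with the block and no fold threshold, 96 of the lower genes and 0 of the higher genes were called. Of 80 called genes named by the rule, 20 kept their call with DESeq2 without the block, 22 with all 5 groups in 1 fit, 57 with DESeq2 and the block, 41 without replicate 2, 50 without replicate 3 and 73 without replicate 1, and none changed sign under any alternative. With 3 pairs and 95% intervals reaching a median of 0.141 to either side on the log2 scale, differences much smaller than the called ones could not be detected.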

Other observations

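Some groups that were listed only after the values were seen held several of the lower genes, and for that reason carry no test. Of 21 subunits of the COPI and COPII vesicle coats, which carry cargo between the endoplasmic reticulum and the Golgi, 6 were lower with dsRNA and 0 higher: COPB1, COPG2, SEC23B, COPB2, SEC24A and SAR1A, from -0.98 to -0.30 on the log2 scale. COPG2 was at 31.5, 28.1 and 28.1 CPM with dsRNA and 54.3, 55.5 and 47.3 CPM with silvestrol, and SEC23B at 66.5, 51.7 and 48.9 CPM against 98.8, 97.9 and 88.9 CPM, both without overlap. The other 15 subunits were not called, and the median of all 21 was -0.03, beside 2.49% of all genes lower and a median of 0.01. Of 18 measured subunits of the vacuolar ATPase, the proton pump of lysosomes, 4 were lower, with ATP6V1E1 at -0.84.

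Of 13 outer kinetochore genes 3 were lower (DSN1, ZWILCH and ZW10), and of 12 genes of the MCM and origin recognition complexes 2 were (ORC5 and MCM6). Of 15 condensin, cohesin and topoisomerase II genes 3 were higher (SMC4 0.22, SMC3 0.21 and TOP2A 0.22) and 1 was lower (STAG1, -0.27). These counts stand beside 2.49% of all genes lower and 0.235% higher. The medians of the 3 lists were -0.07, -0.02 and 0.04 on the log2 scale.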
